A study of Homo sapiens with 4 samples.

Results

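RUNX1, TUBB1, PLEK and LTBP1 are 4 genes with known roles in megakaryocytes, the bone marrow cells that shed platelets. They were taken by gene name from a table of 11213 genes, in which they hold 14 of 32551 transcripts, and the transcript values were summed per gene. They were picked because earlier results on these same libraries showed them moving after knockdown, 2 upward and 2 downward, so their differences between the groups are described here and not tested. The libraries came from K562, a human chronic myelogenous leukemia line that carries the BCR-ABL1 fusion and has erythroid and megakaryocytic features. Cells were transduced with lentivirus, selected with puromycin, and RNA was sequenced. There were 2 shPHF8 libraries, labelled as PHF8 knockdown and carrying a hairpin against the histone demethylase PHF8, and 2 shControl libraries, labelled wild type and carrying a control hairpin. Both groups had thus received virus and drug. The labels do not settle whether the 2 knockdown libraries carry 1 hairpin or different ones, nor whether libraries came from separate cultures, so the spread between libraries may be technical.

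A megakaryocyte grows large, packs granules with clotting and growth factors, and extends long microtubule-filled processes, the proplatelets, whose tips become platelets. RUNX1 is a DNA-binding factor that works with its partner CBFB, and it is needed for megakaryocyte maturation as well as for the making of blood stem cells. TUBB1 is the beta tubulin of the platelet's marginal microtubule band. PLEK encodes pleckstrin, the main protein kinase C substrate of platelets, which is also made by granulocytes and monocytes. LTBP1 encodes a protein that binds latent TGF-beta and anchors it in the extracellular matrix, and platelets release TGF-beta in such complexes.

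RUNX1 and LTBP1 each have 2 regions in which their listed transcripts start, and the results below turn on them. In RUNX1 the distal start of RUNX1-002 lies 160654 bases upstream of the proximal start of RUNX1-001, and the choice of start changes the first coding bases. The 2 coding starts are printed to show that difference, 5′ to 3′, with the first 30 bases of the shared coding sequence in capitals (chromosome 21, minus strand, GENCODE release 29).
RUNX1-002, distal: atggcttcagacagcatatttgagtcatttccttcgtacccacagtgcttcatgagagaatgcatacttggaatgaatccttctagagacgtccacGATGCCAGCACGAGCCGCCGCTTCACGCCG
RUNX1-001, proximal: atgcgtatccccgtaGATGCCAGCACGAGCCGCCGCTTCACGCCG
RUNX1-002 has 96 coding bases of its own and RUNX1-001 has 15, and both continue with the same 1344 coding bases, which makes 480 and 453 codons. RUNX1-201 also starts at the distal region and has the same coding sequence as RUNX1-002. The coding sequence of RUNX1-005, a proximal transcript of the short RUNX1a type, which lacks the transactivation domain, has 750 bases.

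The stretches before the starts are shown next, because PHF8 is known to bind methylated histone H3 lysine 4 at CpG-rich promoters and because RUNX1 is itself a regulator of platelet genes. They come from RefSeq (GRCh38.p14) and run 5′ to 3′ on the gene's strand. Each ends before the RefSeq start or, for PLEK and TUBB1, before the listed start. The listed proximal transcript RUNX1-012 starts farther upstream, at base 34889790, so the printed RUNX1 stretch lies within the span of that transcript. Whether an exon of RUNX1-012 reaches into the stretch was not examined. Capitals mark a match to the RUNX motif TGTGGT on either strand.
RUNX1 proximal, chr21:34888700-34888949, minus strand: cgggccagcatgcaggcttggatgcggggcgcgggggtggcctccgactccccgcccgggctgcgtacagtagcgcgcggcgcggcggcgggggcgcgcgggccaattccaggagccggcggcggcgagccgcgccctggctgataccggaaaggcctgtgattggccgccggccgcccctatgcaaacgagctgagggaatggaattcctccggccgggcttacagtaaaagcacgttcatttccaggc
LTBP1 upstream, chr2:32946703-32946952, plus strand: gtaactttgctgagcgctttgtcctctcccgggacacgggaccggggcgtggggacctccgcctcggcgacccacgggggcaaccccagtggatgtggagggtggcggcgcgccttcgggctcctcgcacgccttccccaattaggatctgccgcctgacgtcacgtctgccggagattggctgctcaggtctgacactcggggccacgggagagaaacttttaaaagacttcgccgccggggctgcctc
PLEK, chr2:68365032-68365172, plus strand: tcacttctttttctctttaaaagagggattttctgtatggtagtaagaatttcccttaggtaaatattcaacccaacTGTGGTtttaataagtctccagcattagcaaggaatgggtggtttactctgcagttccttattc
TUBB1, chr20:59019179-59019253, plus strand: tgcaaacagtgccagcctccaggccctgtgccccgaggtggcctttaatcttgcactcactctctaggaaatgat
Over the 250 bases before the RefSeq start, the proximal RUNX1 window held 32 CpG and the upstream LTBP1 window 24, whereas the PLEK window held 4 and the TUBB1 window 2, against a median of 11 over 35116 windows. For PLEK and TUBB1 the RefSeq start lies inside the listed transcript, so 109 and 175 bases of their windows follow the listed start and are not printed. The printed PLEK stretch contains no CpG, so all 4 counted for PLEK follow its listed start. For TUBB1 the printed stretch holds only part of the counted CpG. The RUNX motif had 1 match in the PLEK window, 173 bases before the RefSeq start and 64 bases before the listed start, and 2 in the window before a downstream LTBP1 start, at 94 and 56 bases, and it occurs in 11% of all windows. The GATA motif AGATAA (in 9.17% of all windows) and the NF-E2 motif TGAGTCA (4.2%) had no match in any of the 6 windows of the 4 genes, and the ETS motif AGGAAG (28.7%) had 1, before the same LTBP1 start. No motif matches overlapped. The 2 windows before downstream LTBP1 starts overlap each other and held 6 CpG each. LTBP1-014, which starts after the upstream window with 24 CpG, held 65.6% to 77.9% of LTBP1 TPM in the 4 libraries. PLEK, with a low count, had lower values in shPHF8, and TUBB1, also with a low count, had higher ones. A relation between CpG count and the difference of the groups was not tested. The distal RUNX1 start, whose transcripts held most of the RUNX1 TPM in 3 of 4 libraries, has no window here, and nothing above describes it.

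The table gives TPM, a measure of abundance per transcript length that is scaled to a total of 1000000 in every library, so the number of reads behind a value is unknown. PHF8 itself was at 6.06 and 6.42 TPM in shPHF8, against 25.9 and 22.5 TPM in shControl, or 25.8% of the shControl mean. Of 15 megakaryocyte and platelet markers, 7 have a row in the table used here, and those without one include GP1BA, GP9, GP5, PF4, VWF, SELP and F13A1. PPBP was at 0 in both shPHF8 libraries, against 0 and 0.34 TPM in shControl, and ITGB3 did not exceed 2.3 TPM. GP1BB and GP6, platelet glycoproteins, were present: GP1BB averaged 120 ± 14.5 TPM in shPHF8 and 121.3 ± 1.93 TPM in shControl, and GP6 averaged 18.6 ± 1.05 TPM in shPHF8 and 20.8 ± 2.37 TPM in shControl (SD, n = 2 each). NRGN, neurogranin, was at 4.46 and 4.72 TPM in shPHF8, against 7.57 and 9.29 TPM in shControl. The 7 markers with a row include TUBB1 itself, and with it they summed to 204 and 185 TPM in shPHF8, against 173 and 178 TPM in shControl. Without TUBB1 the other 6 summed to 169 and 149.8 TPM in shPHF8, against 162 and 165 TPM in shControl, so these groups overlapped.

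TUBB1 and LTBP1 had higher values in shPHF8 and RUNX1 and PLEK lower ones, each without overlap of the groups, as 55.3% of the 10972 tested genes had. TUBB1 (ENSG00000101162) had 1 listed transcript, at 35.4 and 34.9 TPM in shPHF8, against 11.03 and 13.2 TPM in shControl. The 2 knockdown libraries were nearly alike and both lay far above both controls. In bulk RNA, a difference in the number of cells of a type and a difference in RNA per cell cannot be told apart. The means were 35.1 ± 0.343 TPM in shPHF8 and 12.1 ± 1.55 TPM in shControl (SD, n = 2 each), a 2.90-fold difference. On the log2(TPM + 1) scale, used for every fold change from here on and understating those of low genes, TUBB1 differed by 1.47 ± 0.15 (SE of the limma fit), with a 95% interval from 1.06 to 1.87. Leaving out any 1 library gave 1.34 to 1.59. The end of the TUBB1 transcript overlaps the mitochondrial ATP synthase gene ATP5F1E, named ATP5E in the table, on the opposite strand. Of its 50-base stretches, 33% also occur in ATP5F1E transcripts, and these lie beyond the coding sequence, from base 2309 of 3496. Strandedness is not given in the sources used here, so reads from the shared part may have been counted for either gene. ATP5E was at 157 and 154 TPM in shPHF8, against 168 and 182 TPM in shControl (limma adjusted p = 0.292), and the part of shared reads in the TUBB1 values was not tested.

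**Figure D1:**
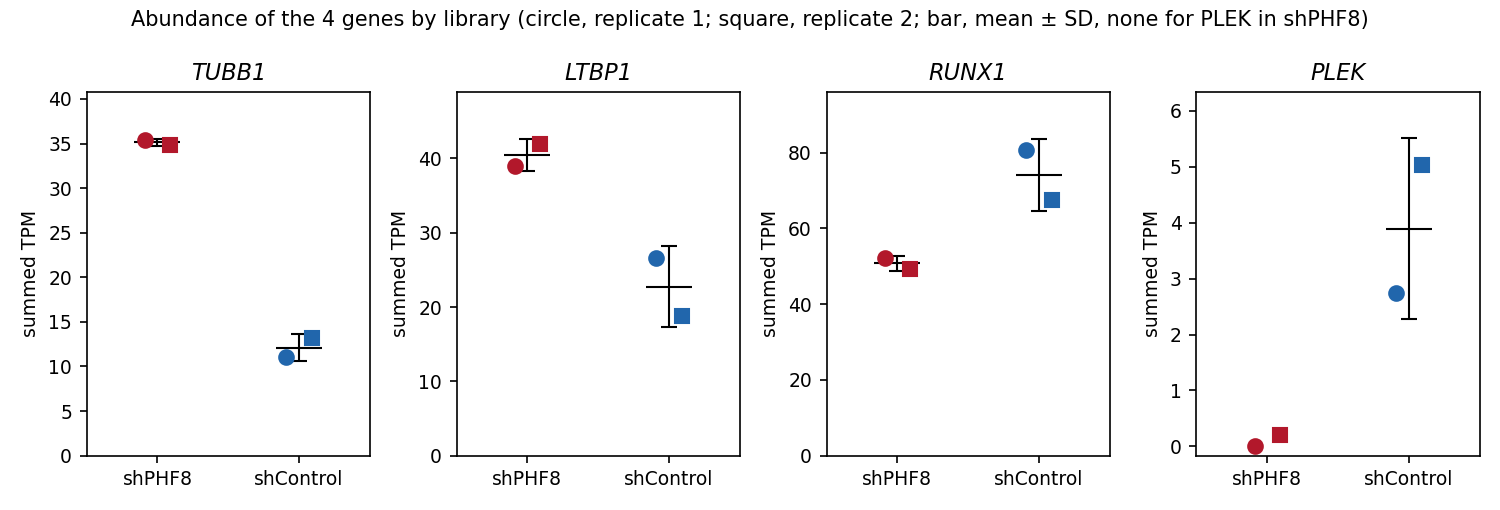
Summed TPM (vertical axes, linear, a separate scale for each gene) of TUBB1, LTBP1, RUNX1 and PLEK in the 2 shPHF8 (red) and 2 shControl (blue) libraries, with the mean and SD as bars except for PLEK in shPHF8, where 1 library is listed at 0. For TUBB1 and LTBP1 both shPHF8 points lie above both shControl points, and for RUNX1 and PLEK both lie below.

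LTBP1 (ENSG00000049323) summed to 38.9 and 41.9 TPM in shPHF8, against 26.6 and 18.9 TPM in shControl. The 2 controls stood farther apart than the 2 knockdown libraries, and the lower knockdown library was still above the higher control. The means were 40.4 ± 2.12 TPM in shPHF8 and 22.7 ± 5.48 TPM in shControl (SD, n = 2 each), a 1.78-fold difference. The log2 fold change was 0.82 ± 0.20 (SE), with a 95% interval from 0.28 to 1.37, and it ran from 0.58 to 1.06 when 1 library was left out.

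PLEK (ENSG00000115956) was low in every library, with 1 listed transcript at 0 and 0.205 TPM in shPHF8, against 2.75 and 5.04 TPM in shControl. The knockdown libraries were thus at or near the bottom of the scale, and the controls differed from each other by 0.69 on the log2(TPM + 1) scale. The log2 fold change was -2.12 ± 0.38 (SE), with a 95% interval from -3.16 to -1.07, and it ran from -2.46 to -1.77 when 1 library was left out. Its size depends on the constant added before taking logs, and with 0.1 TPM in place of 1 TPM it was -4.45. A listed 0 may be a failed estimate, and no ratio of the groups is given. Pleckstrin is also a protein of myeloid cells, and markers of those cells differed in the same direction. Of 7 tested granulocyte and monocyte markers, 7 were lower in shPHF8 at an unadjusted limma p under 0.05, against 12.1% of all genes. FCGR1A, ITGAM and S100A9 averaged under 1 TPM in shPHF8 and entered the test only through shControl, as PLEK did, so their place in the count was partly fixed by the filter. The other 4 were AZU1, CD33, CD68 and LYZ. The 7 summed to 85.2 and 81.6 TPM in shPHF8, against 154 and 176 TPM in shControl. The defining markers MPO, ELANE, PRTN3, CD14, CSF1R, CSF3R and S100A8 have no row in the table used here. All 4 libraries came from the K562 line, and a link between the 7 tested markers and PLEK was not tested.

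RUNX1 (ENSG00000159216) summed to 52.2 and 49.4 TPM over 8 transcripts in shPHF8, against 80.7 and 67.4 TPM in shControl. All 4 libraries therefore held a sizeable level, and the knockdown libraries were closer to each other than the controls were. The means were 50.8 ± 2.00 TPM in shPHF8 and 74.1 ± 9.43 TPM in shControl (SD, n = 2 each), and the shPHF8 mean was 68.6% of the shControl mean. The log2 fold change was -0.53 ± 0.13 (SE), with a 95% interval from -0.88 to -0.18, and between -0.66 and -0.40 when 1 library was left out. Ordered by level, RUNX1 was highest, followed by LTBP1, TUBB1 and PLEK, in shPHF8 and in shControl alike. No 2 neighbours in that order overlapped within a group; the closest were LTBP1 and TUBB1 in shPHF8, whose nearest libraries stood at 38.9 and 35.4 TPM.

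Groups without overlap were common in this table. Of the 10972 genes that averaged 1 TPM or more, 26% had both shPHF8 libraries above both controls, 29.3% had both below, and 55.3% had 1 or the other. The 4 genes were chosen from this contrast, so their separation adds nothing to these shares. Within a group, the median gap between 2 libraries over all 10972 genes was 0.15 on the log2(TPM + 1) scale in shPHF8 and 0.18 in shControl. The gaps of the 4 genes in shPHF8 were 0.02 for TUBB1, 0.08 for RUNX1, 0.10 for LTBP1 and 0.27 for PLEK, and in shControl 0.24 for TUBB1, 0.26 for RUNX1, 0.48 for LTBP1 and 0.69 for PLEK. All 4 genes were thus spread more widely between the controls than between the knockdown libraries.

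The RUNX1 sum hides transcripts that differed between libraries of the same group. RUNX1-001, the proximal full-length form, was at 3.95 and 7.61 TPM in shPHF8, against 8.04 and 44.9 TPM in shControl. RUNX1-002, the distal full-length form, was at 9.03 and 20.6 TPM in shPHF8, against 48.3 and 0.186 TPM in shControl. The 2 control libraries thus held almost opposite mixtures, with 59.8% of RUNX1 TPM on RUNX1-002 in replicate 1 and 66.6% on RUNX1-001 in replicate 2. RUNX1-201, which codes for the same protein as RUNX1-002, was at 27.9 and 3.44 TPM in shPHF8, against 1.64 and 0 TPM in shControl. It was the leading transcript of shPHF8 replicate 1, while RUNX1-002 led in shPHF8 replicate 2. RUNX1-002 and RUNX1-201 together made 37.0 and 24.0 TPM in shPHF8, against 49.9 and 0.186 TPM in shControl, so that the 2 controls bracketed the 2 knockdown libraries.

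**Figure D2:**
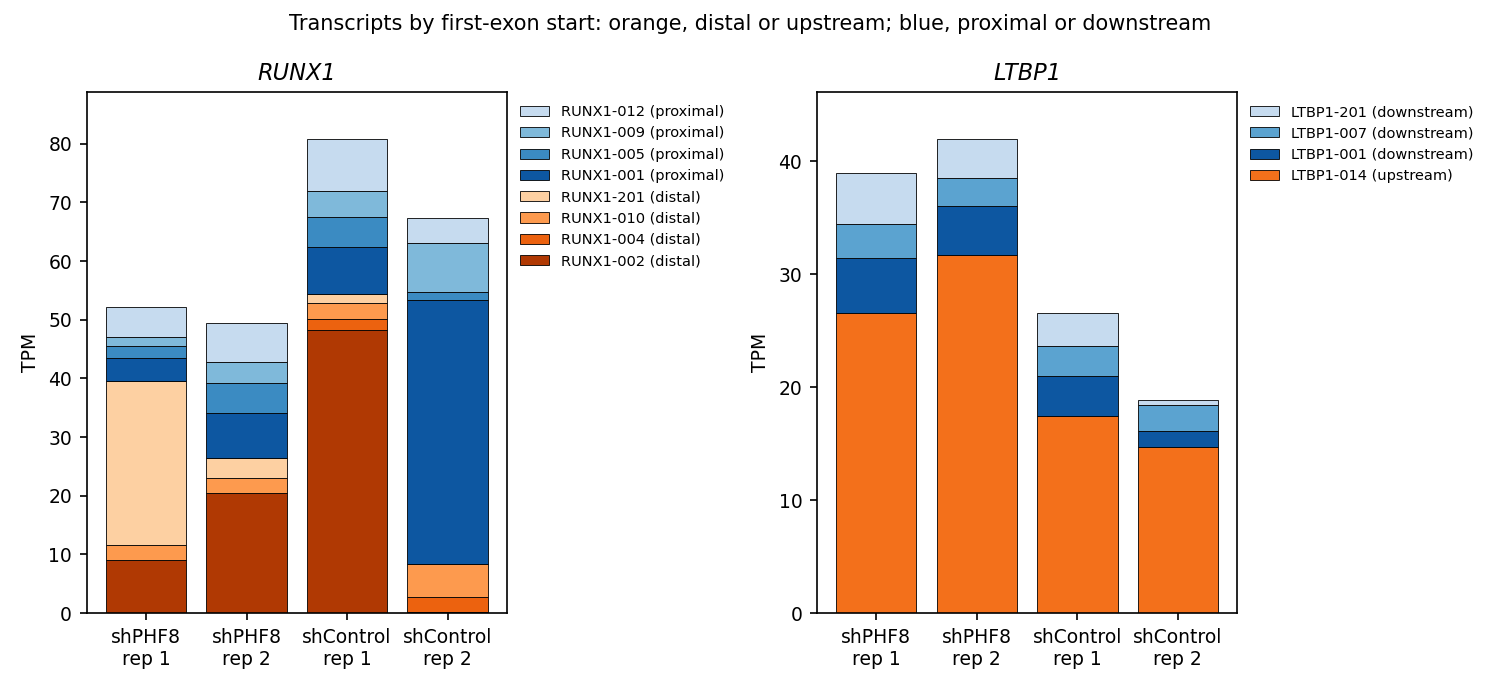
TPM of each listed transcript of RUNX1 (left) and LTBP1 (right), stacked by library, with orange shades for the distal or upstream starts and blue shades for the proximal or downstream starts. For RUNX1 the orange part is largest in shControl replicate 1 and smallest in shControl replicate 2, with both shPHF8 libraries between them, whereas LTBP1 keeps most of its TPM on LTBP1-014 in every library.

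Summed by start region, a grouping chosen after the transcript values were seen, only the proximal RUNX1 sum was lower in both knockdown libraries. The 4 proximal transcripts made 12.6 and 22.9 TPM in shPHF8, against 26.3 and 59.0 TPM in shControl, a difference of -1.16 on the log2(TPM + 1) scale that ran from -1.73 to -0.60 when 1 library was left out. The 4 distal transcripts made 39.6 and 26.4 TPM in shPHF8, against 54.4 and 8.44 TPM in shControl, and these groups overlapped. Their difference was 0.55, turned to -0.73 without shControl replicate 2, and was 1.82 without shControl replicate 1 and 0.83 without shPHF8 replicate 2. It was 0.26 without shPHF8 replicate 1. The distal share of RUNX1 was 75.8% and 53.5% in shPHF8, against 67.4% and 12.5% in shControl. Of the 59.0 TPM of the proximal sum in shControl replicate 2, RUNX1-001 alone made 44.9 TPM. RUNX1-004, a distal transcript whose annotated coding sequence has only 97 bases, was at 0 in both shPHF8 libraries, against 1.88 and 2.51 TPM in shControl. RUNX1-010, also distal, was lower without overlap as well, at 2.60 and 2.45 TPM in shPHF8, against 2.63 and 5.74 TPM in shControl. The proximal transcripts RUNX1-005 and RUNX1-012 had overlapping groups, so single transcripts did not follow their start region.

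How reads were divided among RUNX1 transcripts limits these values. RUNX1-001 and RUNX1-201 have no 50-base stretch that is absent from the other listed RUNX1 transcripts, and for RUNX1-002 3.43% of stretches are its own. No RUNX1 stretch occurs in another gene of GENCODE release 29. Between the 2 shControl libraries, 70.2% of RUNX1 TPM lay on different transcripts, meaning the share that would have to move to make the mixtures equal. That value was exceeded by 4.36% of 7733 genes with at least 2 transcripts, whose median was 11.9%. Between the 2 shPHF8 libraries the RUNX1 value was 46.6%, exceeded by 13.2% of 7721 genes with a median of 11.8%. A change of the leading transcript between the 2 shControl libraries was found in 24.5% of these genes, and in 38% of the 471 with at least 8 transcripts. Among the 30266 transcripts that averaged 1 TPM or more, 43.2% had groups that did not overlap, which is the background for every transcript named here.

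**Figure D3:**
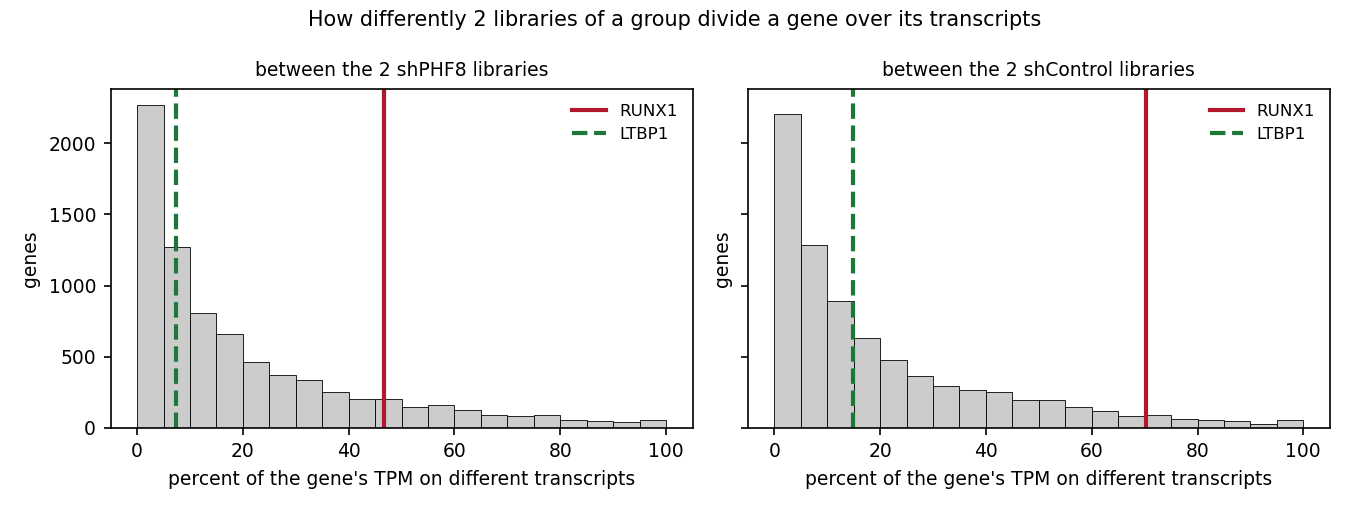
Number of genes (vertical axes) by the percent of a gene's TPM that lies on different transcripts in the 2 libraries of a group (horizontal axes, bins of 5 percentage points), for shPHF8 (left) and shControl (right), in genes with at least 2 listed transcripts. RUNX1 (solid red line) lies at 46.6% and 70.2%, in the thin right part of both distributions, and LTBP1 (dashed green line) at 7.35% and 14.8%, near their bulk.

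LTBP1 showed no such exchange. LTBP1-014, which starts 187667 bases upstream of LTBP1-001 and has the longest coding sequence (5163 bases, the long form LTBP1L), was at 26.6 and 31.7 TPM in shPHF8, against 17.4 and 14.7 TPM in shControl. It held 68.2% and 75.6% of LTBP1 TPM in shPHF8, against 65.6% and 77.9% in shControl, so its share did not separate the groups. The 3 downstream transcripts together made 12.4 and 10.2 TPM in shPHF8, against 9.15 and 4.17 TPM in shControl, also without overlap. Their coding sequences have 4026, 4185 and 4059 bases and correspond to the short form. LTBP1-007 alone had overlapping groups, with 2.998 and 2.53 TPM in shPHF8, against 2.63 and 2.34 TPM in shControl. Of the 50-base stretches of LTBP1-014, 22.1% are its own among the listed LTBP1 transcripts, and 2.47% lie opposite the antisense RNA AC019127.1. The downstream transcripts are less distinct, with 0.952% for LTBP1-001, 1.72% for LTBP1-201 and 0% for LTBP1-007. Values of single downstream transcripts, among them the overlap of LTBP1-007, are therefore uncertain.

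The genes around these 4 were described through 7 lists of megakaryocyte and platelet genes with 234 entries, of which 171 distinct genes other than the 4 were tested. By limma with Benjamini-Hochberg adjustment over all 10972 genes, 0 of the 171 passed, as did 0% of all genes, and the smallest adjusted p over all genes was 0.0554. After quantile normalization of the same values, 17 of all genes were called higher and 20 lower. At an unadjusted limma p under 0.05, 18 of the 171 were higher in shPHF8 and 30 were lower, or 10.5% and 17.5%, against 9.9% and 12.1% of all genes. Their median log2 fold change was -0.10, against -0.02 over all genes. Leaving out shPHF8 replicate 1 gave 11 higher and 22 lower, and leaving out shPHF8 replicate 2 gave 10 and 25. Of the 30 lower genes 2 averaged under 1 TPM in shPHF8. Over all genes the higher count was 1086 and became 646 and 592 without these libraries. Numbers of higher and lower genes given from here on are at the unadjusted limma p, and none of them is a call over all genes.

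**Figure D4:**
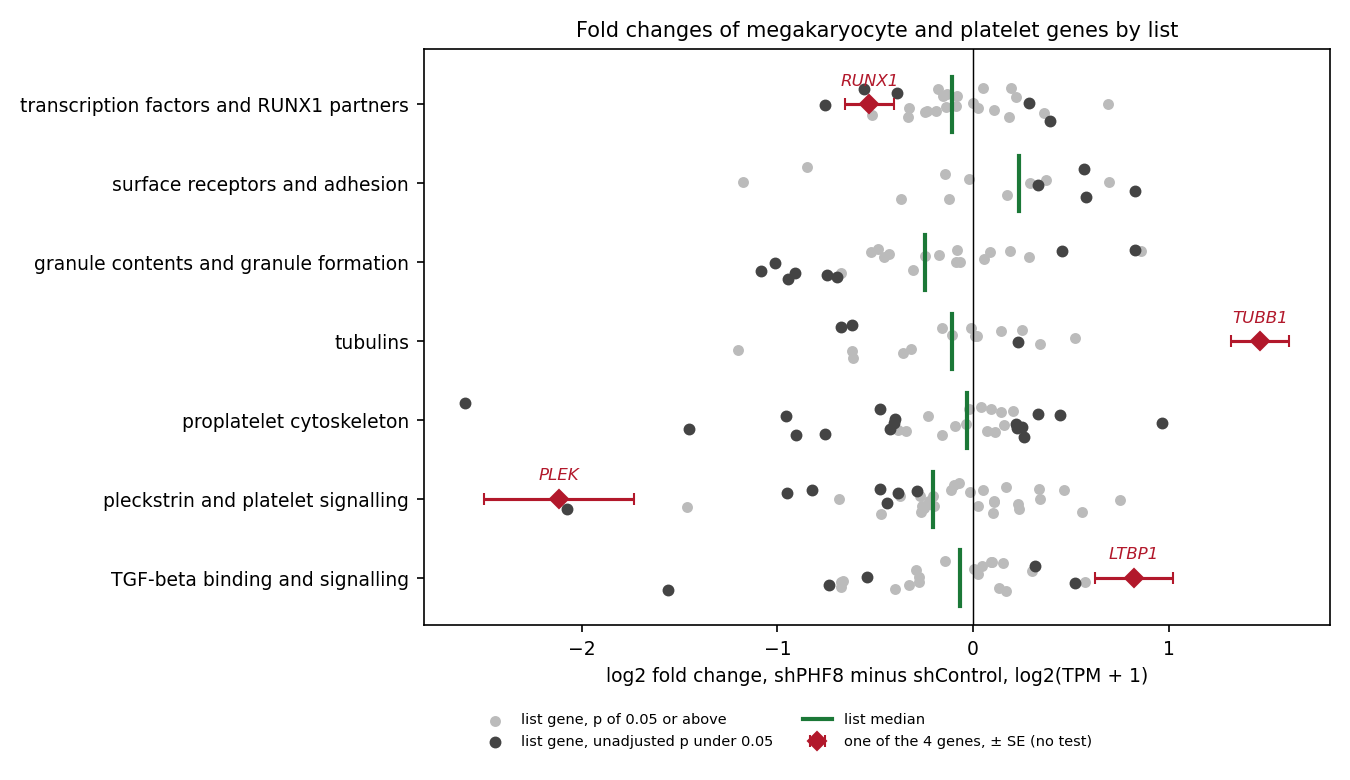
Log2 fold change of shPHF8 over shControl, from log2(TPM + 1) values (horizontal axis), of each tested gene in the 7 lists (rows), with dark points for an unadjusted limma p under 0.05, green bars for list medians and red diamonds with SE for the 4 genes, placed in the list of their own family. TUBB1 at 1.47 lies to the right of every other tubulin, and PLEK at -2.12 and RASGRP2 at -2.08 lie to the left of every other signalling gene.

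Among the transcription factors and RUNX1 partners, 2 of 26 were higher and 3 were lower, or 19.2% in either direction against 22% of all genes, with a median log2 fold change of -0.11. SPI1, the myeloid factor PU.1, which RUNX1 is known to regulate, was at 37.9 and 32.2 TPM in shPHF8, against 55.2 and 64.8 TPM in shControl (limma adjusted p = 0.107). GATA2, a factor of progenitors and early megakaryocytes, was lower, at 90.2 ± 3.74 TPM in shPHF8 and 118.6 ± 7.79 TPM in shControl (SD, n = 2 each), as was ETV6, an ETS-family repressor, at 6.86 ± 0.195 TPM in shPHF8 and 10.6 ± 1.69 TPM in shControl. The erythroid factor KLF1 was higher, at 188 and 184 TPM in shPHF8, against 139 and 143 TPM in shControl (limma adjusted p = 0.102). IKZF1 averaged 68.2 ± 1.32 TPM in shPHF8 and 55.7 ± 3.38 TPM in shControl (SD, n = 2 each). CBFB, the partner of RUNX1, was at 112 and 106 TPM in shPHF8, against 98.2 and 93.9 TPM in shControl, and did not pass (limma adjusted p = 0.297). GATA1 was at 309 ± 2.92 TPM in shPHF8 and 341 ± 2.48 TPM in shControl (SD, n = 2 each, limma adjusted p = 0.255). The last 2 genes were named for their known partnership with RUNX1 after their values were seen. RUNX2 and RUNX3 have no row in the table used here. Leaving out shPHF8 replicate 1, shPHF8 replicate 2, shControl replicate 1 and shControl replicate 2 in turn gave 1, 2, 3 and 1 higher, and 2, 2, 3 and 4 lower.

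Of the 17 other tubulins tested, 1 was higher and 2 were lower, or 17.6% in either direction against 22% of all genes, with a median of -0.11. TUBB, the most abundant beta tubulin here, was at 2288 and 2278 TPM in shPHF8, against 2006 and 1892 TPM in shControl, a log2 fold change of 0.23 ± 0.05 (SE; limma adjusted p = 0.117). TUBA4A, an alpha tubulin of platelets, was at 27.4 and 33.4 TPM in shPHF8, against 46.4 and 47.6 TPM in shControl, and the beta tubulin TUBB6 at 25.2 and 25.3 TPM in shPHF8, against 32.9 and 50.8 TPM in shControl. TUBB3 was at 8.97 and 17.4 TPM in shPHF8, against 9.42 and 7.56 TPM in shControl, with overlapping groups. Tubulin genes share long stretches of sequence, so small differences between them are uncertain. Without shPHF8 replicate 1, shPHF8 replicate 2, shControl replicate 1 and shControl replicate 2 in turn, 2, 1, 1 and 2 were higher, and 2, 3, 3 and 0 were lower.

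In the list of proplatelet cytoskeleton genes 7 of 30 were higher and 9 were lower, a share of 53.3% against 22% of all genes in either direction. The list held genes of both directions, and its median was -0.03. Fitted without the limma trend, 1 was higher and 8 were lower. With libraries of the same number taken as a block, 2 were higher and 8 lower. Over all genes the higher count was 994 without the trend and 888 with the block, against 1086. The tropomyosin TPM4, known to be needed for platelet formation, was at 29.8 and 32.2 TPM in shPHF8, against 211.6 and 174.7 TPM in shControl (limma adjusted p = 0.0554). The myosin light chain MYL12B was at 300.5 and 316 TPM in shPHF8, against 522 and 523 TPM in shControl (limma adjusted p = 0.056). The small GTPase RAC1 was higher, at 327 and 348 TPM in shPHF8, against 177 and 168 TPM in shControl (limma adjusted p = 0.056). FERMT3, the kindlin-3 that helps activate platelet integrins, averaged 244 ± 16.2 TPM in shPHF8 and 193 ± 11.5 TPM in shControl (SD, n = 2 each). The higher count was sensitive to single libraries: it was 1 without shPHF8 replicate 1, 3 without shPHF8 replicate 2, and 2 without either shControl replicate, while the lower count stayed between 7 and 9.

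None of the 36 tested genes of protein kinase C and platelet signalling, the setting in which pleckstrin works, was higher, and 7 were lower, with a median of -0.20. By direction, 0% were higher, against 9.9% of all genes, and 19.4% were lower, against 12.1%. The share in either direction was also 19.4%, against 22% of all genes. RASGRP2, 1 of the 7, averaged under 1 TPM in shPHF8 and entered the test only through shControl. RASGRP2, the exchange factor that switches on RAP1 in platelets, was at 1.11 and 0.212 TPM in shPHF8, against 6.62 and 4.95 TPM in shControl, a log2 fold change of -2.08 ± 0.39 (SE; limma adjusted p = 0.104). PTGS1, the cyclooxygenase of platelets, was at 5.28 and 5.99 TPM in shPHF8, against 10.2 and 13.6 TPM in shControl (limma adjusted p = 0.129). The adaptor DAPP1, at 14.5 ± 4.65 TPM in shPHF8 and 9.32 ± 1.25 TPM in shControl, and the kinase PIK3CG, at 37.7 ± 0.22 TPM in shPHF8 and 31.9 ± 2.69 TPM in shControl (SD, n = 2 each), did not pass. PLEK2, the paralogue of pleckstrin, has no row in the table used here. Leaving out shPHF8 replicate 1, shPHF8 replicate 2, shControl replicate 1 and shControl replicate 2 in turn gave 3, 0, 1 and 0 higher, and 4, 3, 4 and 4 lower.

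Of 24 tested genes that hold or transmit TGF-beta, 2 were higher and 3 were lower, or 20.8% in either direction against 22% of all genes, with a median of -0.07. TGM2, the transglutaminase that cross-links LTBP1 to matrix, was at 95.6 and 90.5 TPM in shPHF8, against 67.3 and 61.7 TPM in shControl (limma adjusted p = 0.103). ITGAV, an integrin chain that takes part in freeing latent TGF-beta, averaged 46.7 ± 0.833 TPM in shPHF8 and 37.3 ± 0.892 TPM in shControl (SD, n = 2 each). The type I receptors ACVR1, at 28.8 and 29.5 TPM in shPHF8, against 41.5 and 44.5 TPM in shControl, and ACVRL1, at 0.182 and 0.190 TPM in shPHF8, against 2.09 and 2.95 TPM in shControl, were 2 of the 3 lower genes. ACVRL1 entered the test only through shControl, and with a minimum of 5 TPM the lower count was 2. ID1, a target of the related BMP pathway, was the other, at 132 and 105 TPM in shPHF8, against 175 and 220 TPM in shControl (limma adjusted p = 0.135). The paralogues LTBP3, at 10.9 ± 0.28 TPM in shPHF8 and 13.5 ± 0.177 TPM in shControl, and LTBP4, at 27.7 ± 5.28 TPM in shPHF8 and 36.7 ± 4.77 TPM in shControl (SD, n = 2 each), had log2 fold changes of -0.29 ± 0.15 and -0.40 ± 0.19 (SE) and missed the unadjusted threshold. The ligand TGFB1 did not pass either, at 135 ± 2.68 TPM in shPHF8 and 122 ± 1.47 TPM in shControl (SD, n = 2 each). These 3 were named as family and ligand of LTBP1 after their values were seen. The higher count was 1 without shControl replicate 2 or either shPHF8 replicate, and the lower count was 3 or 4 in every such fit.

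Of 14 tested surface receptors and adhesion genes 4 were higher and 0 were lower, or 28.6% in either direction against 22% of all genes, with a median of 0.23. By direction, 28.6% were higher, against 9.9% of all genes, and 0% were lower, against 12.1%. The integrin chain ITGB1 was at 365 and 377 TPM in shPHF8, against 266 and 236 TPM in shControl (limma adjusted p = 0.0877), and CD36 at 26.6 and 24.9 TPM in shPHF8, against 13.6 and 14.5 TPM in shControl (limma adjusted p = 0.0906). The other 2 were the ADP receptor P2RY1 and the thrombin receptor F2RL3, named to complete the count. The platelet integrin chain ITGA2B averaged 14.3 ± 1.90 TPM in shPHF8 and 10.8 ± 0.847 TPM in shControl (SD, n = 2 each) and did not pass (limma adjusted p = 0.314). The receptor KIT was at 1.56 and 0 TPM in shPHF8, against 2.10 and 3.22 TPM in shControl, and the junction protein F11R at 24.1 and 88.8 TPM in shPHF8, against 86.6 and 82.5 TPM in shControl, so for F11R 1 knockdown library made the difference. Leaving out shPHF8 replicate 1, shPHF8 replicate 2, shControl replicate 1 and shControl replicate 2 in turn gave 3, 2, 2 and 4 higher, and 1, 1, 1 and 0 lower.

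Among 25 tested genes of granule contents and granule formation 2 were higher and 6 were lower, or 32% in either direction against 22% of all genes, with a median of -0.24. VAMP8, the vesicle protein of platelet granule release, was at 170 and 167 TPM in shPHF8, against 305 and 346 TPM in shControl (limma adjusted p = 0.0652). RAB32, a GTPase of dense granule formation, was at 24.2 and 24.5 TPM in shPHF8, against 43.5 and 50.1 TPM in shControl (limma adjusted p = 0.0771). HPS4, a dense granule gene, was higher, at 18.7 and 20.1 TPM in shPHF8, against 13.4 and 14.3 TPM in shControl, as was the syntaxin STX11, at 2.92 and 2.73 TPM in shPHF8, against 1.42 and 0.926 TPM in shControl. Without shPHF8 replicate 1, shPHF8 replicate 2, shControl replicate 1 and shControl replicate 2 in turn, 0, 1, 1 and 2 were higher, and 3, 6, 8 and 4 were lower.

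Markers of other cell types also differed between the groups. Of 15 tested erythroid markers 13 were higher and 0 were lower, against 9.9% and 12.1% of all genes, and the 16 with a row summed to 18150 and 17340 TPM in shPHF8, against 11150 and 12080 TPM in shControl. Of 3 lymphocyte and 3 stromal and endothelial markers tested, 2 of each were lower, against 12.1% of all genes. PTPRC and VIM each held most of the summed TPM of their own class. Without PTPRC, the leukocyte antigen CD45, the lymphocyte markers summed to 15.6 and 11 TPM in shPHF8, against 30.4 and 34.4 TPM in shControl. Without VIM, vimentin, the stromal and endothelial markers summed to 3.42 and 2.52 TPM in shPHF8, against 9.88 and 13.02 TPM in shControl. All 4 libraries came from the K562 line, and a link between these markers and the 4 genes was not tested.

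The genes most alike to each of the 4 were found by the Euclidean distance between log2(TPM + 1) profiles over the 4 libraries, each centred on its own mean, among all 10972 genes tested. Nearest to RUNX1 were STC2, ZBTB39 and CPLX1, at distances of 0.02 to 0.04, and STC2, a secreted glycoprotein hormone, was at 35.1 and 32.7 TPM in shPHF8, against 54.7 and 45.4 TPM in shControl. Nearest to TUBB1 were ACSS1, TP73 and AKAP12, at 0.07 to 0.18, and ACSS1, a mitochondrial acetate-activating enzyme, was at 9.10 and 9.55 TPM in shPHF8, against 2.48 and 2.95 TPM in shControl. Nearest to PLEK were LY96, ITGAM and CHKB, at 0.23 to 0.26. LY96, the co-receptor of TLR4, was at 0.322 and 0.976 TPM in shPHF8, against 4.74 and 7.60 TPM in shControl, and the myeloid integrin ITGAM at 0.165 and 0.126 TPM in shPHF8, against 2.97 and 5.67 TPM in shControl. CHKB was at 0 and 0.454 TPM in shPHF8, against 3.06 and 4.77 TPM in shControl. Like PLEK, these genes were under 1 TPM in both shPHF8 libraries and entered the test only through shControl. Their likeness to PLEK was thus partly fixed by the filter and by values near 0. Nearest to LTBP1 were INPP5A, HERC1 and AFF4, at 0.07 to 0.10, and INPP5A, an inositol phosphatase, was at 16.9 and 19.3 TPM in shPHF8, against 11.5 and 8.31 TPM in shControl. The neighbours share the 4 libraries with the genes they resemble, and 4 libraries allow many genes to look alike.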

How the data were processed

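RNA of 4 K562 libraries was sequenced. The authors deposited 1 table of TPM per transcript, with 1 column per library, per the file headers. A second set of 4 deposited columns carries no unit, is treated as signal and was not used. Per the submitters' processing notes, HISAT2 2.0.4, StringTie 1.2.3 and the build hg19 were used; which step each tool served, the annotation used and the strandedness have no statement in those sources. TPM hold no read depth; precision rests on how far libraries of a group differ.

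Libraries were grouped by their titles. Transcript TPM were added up by gene name and put on the log2(TPM + 1) scale. The 10972 genes that averaged 1 TPM or more, among them all 4 described here, were fitted with limma 3.58.1 in R 4.3.3 (shPHF8 minus shControl, empirical Bayes with trend, two-sided, Benjamini-Hochberg, threshold 0.05), after checking the fit on simulated data. The fit had 2 residual degrees of freedom plus 2.16 from the prior. With 2 libraries a side, the smallest two-sided p of an exact permutation test is 0.333, so none was run.

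The 4 genes and the lists were chosen with earlier results of these data known. The text names, per list, up to 2 genes a direction, by smallest p, all genes at an unadjusted p under 0.05 in the factor, tubulin and TGF-beta lists, and the 3 nearest profiles of each of the 4 genes. All 14 transcripts were found in GENCODE release 29 (GRCh38), which gave starts, coding sequences and shared 50-base stretches; no coordinate of hg19 is given. Promoter windows are from RefSeq. Alternatives covered the pseudocount, the filter, scaling, the trend, a replicate block, single libraries and the leading transcript. Python 3.11.15 with pandas 2.3.3 handled tables, and matplotlib 3.10.9 drew the plots.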

Additional observations from a re-analysis of the deposited data

How the results depend on the processing

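TUBB1, LTBP1 and PLEK kept their direction under every alternative that gave a value, and RUNX1 did so under all but 1. With the leading transcript in place of the sum, RUNX1 turned to 0.94, since that transcript, RUNX1-002, is nearly missing from shControl replicate 2. PLEK was -4.45 with a pseudocount of 0.1, because its TPM are near 0, and was not tested with a minimum of 5 TPM. Without single libraries the distal RUNX1 difference ran from -0.73 to 1.82. Quantile normalization gave limma calls at an adjusted p under 0.05 for 17 genes upward and 20 downward, against 0 each without it; the cause was not tested. Without single libraries the number of genes higher at an unadjusted p under 0.05 ran from 592 to 1118, and that of list genes from 10 to 12. With the replicate block the number of higher list genes was 8, against 18, while that of lower ones was 30 in both; same-numbered libraries did not deviate together (correlation of -0.03 over 10972 genes), so the numbers are not taken as pairs. Of 154 counts per list under these alternatives, 113 were within 1.5 times the value reported. Depth is unknown, so no counting error can be given for low values such as those of PLEK.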
